A study of Macaca mulatta with 48 samples.

Results

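The comparison concerned the prepubertal rhesus monkey testis in the breeding against the non-breeding season. It was made in 32160 cells of 4 single-cell libraries, out of 112150 cells that passed the same quality filter in all 12 libraries of the series. The prepubertal group held 2 male monkeys of 1 year, and both gave 1 library in each season. Per the study's methods, one testis was removed in August, in the non-breeding season, and the contralateral testis in December, in the breeding season, so that the animal is its own control. Season therefore cannot be told apart from growth over those months, from the earlier removal of the other testis, or from the library itself. Cells were released from the tissue by collagenase digestion and captured on the 10x Genomics platform. No animal carried a transgene or received an agent named in the labels. Members were all barcodes of the 4 libraries with at least 300 detected genes, at most 30000 UMIs (unique molecular identifiers, one per captured mRNA molecule) and at most 3% mitochondrial UMIs. Barcodes with any UMI of CST9L, DEFB119, PRM1 or AURKA were then left out in all 4 libraries, because the non-breeding library of animal 1 also held adult-like cells. The other groups of the series, adult and aged monkeys, were not used here.

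Before puberty the seminiferous cords hold mainly immature Sertoli cells, which nurse germ cells and secrete anti-Mullerian hormone, together with a small pool of spermatogonia. Leydig cells of the interstitium make testosterone under luteinizing hormone, and their adult form appears only at puberty. Rhesus monkeys are seasonal breeders, and in adult males testosterone output and sperm production rise in autumn and winter. Immediate early genes are transcribed within minutes of many stimuli, from hormones and growth factors to the enzymatic dissociation of a tissue, without new protein synthesis.

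The 4 prepubertal libraries held 7212 to 11355 barcodes and 31491285 to 43405583 UMIs, and between 4921 and 10947 cells of each became members, with a median of 2473 to 2890.5 UMIs per cell. After removal of predicted doublets 29766 cells were analysed, and any pair of the 4 libraries shared between 13 and 41 cell barcodes. The non-breeding library of animal 1 stood apart, since 53.0% of its cells carried a UMI of the 4 excluded genes, against 3.04% to 7.21% in the other 3 libraries. A residue of adult-like RNA remained in it after the exclusion. The summed level of 11 spermatid markers in its Sertoli-like cells was 60.2 CPM (UMIs per 1000000 UMIs of the class), against 25.4, 25.7 and 27.4 CPM in the breeding library of animal 1 and the non-breeding and breeding libraries of animal 2. The protamine gene PRM2 reached 12.9 CPM there and had 0 UMIs in Sertoli-like cells of the other 3. Genes that passed and whose log2 change moved by more than 1.5 times without this library, or without another, are listed with those values after the results.

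Clusters were named from marker lists. Sertoli-like cells (AMH, SOX9, INHA, WT1, DHH and other markers) made up 19775 cells in 13 clusters, interstitial-like cells (DLK1, PDGFRA, TCF21, DCN, LAMA2, with a steroidogenic cluster) 4372 cells in 3 clusters, spermatogonia-like cells 508 and endothelial-like cells 420. The 3 interstitial clusters held cells of all 4 libraries. The Sertoli-like cells of the libraries lay largely in different clusters. Animal 1 was mostly in clusters 2 and 3 in the non-breeding and in clusters 4 and 20 in the breeding season, and animal 2 mostly in clusters 1, 17 and 27 and in clusters 16, 21 and 22. Levels within the Sertoli-like class are thus levels over different clusters in each library.

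No cell class passed a test of its share between the seasons. Here and below, ± after a log2 difference (breeding minus non-breeding) gives its standard error. Sertoli-like cells were 50.6% and 79.9% of cells in the non-breeding and 58.8% and 65.0% in the breeding testes of animals 1 and 2 (log2 -0.04 ± 0.37, adjusted p 0.920). Interstitial-like cells were 11.4% and 12.4% of cells in the non-breeding and 17.8% and 16.7% in the breeding testes of animals 1 and 2, and the seasons did not overlap. The paired difference of the interstitial share, log2 0.53 ± 0.34, adjusted p 0.443, nevertheless did not pass. Among cells of at least 1000 UMIs the seasons were close to each other, at 12.4% and 11.8% in the non-breeding and 12.4% and 11.98% in the breeding testes (log2 0.02), so the larger breeding share was not seen among deeper cells. The Sertoli-like share of animal 1 also turned with the clusters. It went from 60.3% to 59.1% without the adult-like clusters and from 62.0% to 60.3% at Leiden resolution 1. The adult-like clusters were clusters 0, 6, 13 and 19, none named Sertoli-like. Each had at least 87.2% of its cells that passed the quality filter in the non-breeding library of animal 1. Leaving them out raises the Sertoli-like share of that library by construction, so the first of these turns is no independent result. Spermatogonia-like cells, which include the stem cells of the germ line, were 1.90% and 0.732% of cells in the non-breeding and 2.91% and 1.84% in the breeding testes of animals 1 and 2. Their share was larger in the breeding testis of both animals, but the paired difference (log2 0.97 ± 0.40, adjusted p 0.327) missed the threshold too, and went from 1.69 without the non-breeding library of animal 1 to 0.32 without that of animal 2. Of 10 classes, unnamed cells included, 0 passed an adjusted p of 0.05 in edgeR's quasi-likelihood test with the animal as a block, and 2 had an unadjusted p under 0.05. These were the spermatid-like cells, 46 cells of the non-breeding library of animal 1 and none elsewhere, and the spermatocyte-like cells. The latter were 2.96% and 0.210% of cells in the non-breeding and 0.364% and 0.0339% in the breeding testes of animals 1 and 2 (unadjusted p 0.00752, adjusted p 0.0752), so that most lay in the library with the adult-like cells. The markers do not bear out that name in the other 3 libraries. There SYCP3, a protein of the meiotic chromosome axis, had 0 UMIs in the class, and the summed spermatocyte markers were 421, 256 and 582 CPM in the breeding library of animal 1 and the non-breeding and breeding libraries of animal 2, below the spermatogonia markers at 2199.6, 1822 and 1745 CPM. In the non-breeding library of animal 1 they were 3051 and 1069 CPM. Erythroid markers took 66900.1 CPM of the class in the non-breeding library of animal 2. The shares are given as those of the cluster. When the non-breeding testis of animal 1 was left out and season alone was fitted, the log2 differences were 2.63 for endothelial-like and 4.51 for peritubular-like cells. The non-breeding side of this fit is 1 library, that of animal 2, with 31 and 5 such cells and the lowest shares of both classes.

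**Figure D1:**
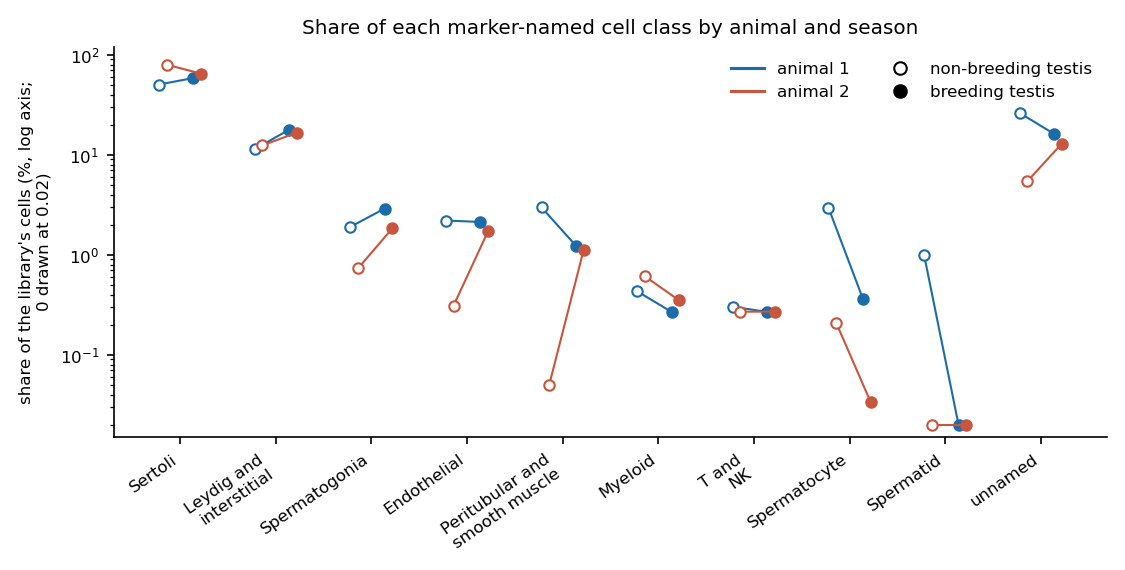
Share of each marker-named cell class in percent of the library's analysed cells (log axis, 0 drawn at 0.02). Each line joins the non-breeding (open) and breeding (filled) testis of 1 animal. Interstitial-like cells, with the unnamed clusters left out, went from 11.4% to 17.8% and from 12.4% to 16.7%. This difference was not seen among cells of at least 1000 UMIs. The Sertoli-like share was larger in the breeding testis of animal 1 (though not at Leiden resolution 1) and smaller in that of animal 2.

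In Sertoli-like cells the breeding-season testes had higher levels of NR4A3, an orphan nuclear receptor of the immediate early class, and of a set of genes that, by size among genes with a symbol, was led by HOMER1, EOLA2 and USP36. Of 15084 genes tested, 90 were higher (0.597%) and 10 lower (0.0663%) in the breeding season, 0.663% in all, in edgeR's quasi-likelihood test with the animal as a block and an adjusted p under 0.05. The 90 higher genes had log2 changes of 0.94 to 3.60, with a median of 1.30. Every gene that passed had the same sign in both animals, which the paired test largely requires. These counts rest on the pairing and on the barcodes kept. Without the animal block 0 genes passed in edgeR (904 at an unadjusted p under 0.05), whereas DESeq2 with the block called 455. Leaving out 1 library and fitting season alone gave 11 genes without the non-breeding and 13 without the breeding library of animal 1, and 63 and 0 without those of animal 2. With the barcodes of the 4 excluded genes kept 11 genes passed, with barcodes dropped on 3 of the 4 genes 21, and with predicted doublets kept 23. Among the genes named below NR4A3, HOMER1, EOLA2, USP36, KIFC1 and FOSL2 passed in each of these, while JMY, KLF6, PER2, NFIL3, CYP11A1, WT1, PAPPA, EGLN1, RPGRIP1, H1-4, H1-2, IGF2 and COL1A2 passed in none of the 3. The p-values measure how far the season changes of the 2 animals disagree. That rests on 1 residual degree of freedom and on spread borrowed across genes. Depth and content of the Sertoli-like libraries moved with season as well. The median UMI count per cell was 3301.5 and 2687 in the non-breeding and 4244.5 and 3354.5 in the breeding libraries, ribosomal protein genes took 111804 and 100459 CPM in the non-breeding and 106980 and 85594 CPM in the breeding libraries, and the 13 mitochondrial genes 2503 and 3235 CPM in the non-breeding and 2221 and 2005 CPM in the breeding libraries. The summed level of 12 peritubular and smooth muscle markers was 351 and 371 CPM in the non-breeding and 565 and 485 CPM in the breeding libraries, and the muscle genes ACTA2 and MYH11 stood at no more than 4.77 and 6.01 CPM in any library. LMOD1, a marker in this sum, is itself among the 90 higher genes, so the sum is not separate from them. The part of depth and content in the results was not tested.

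NR4A3 (ENSMMUG00000011410, chr15:43049933-43093904, minus strand; build Mmul_10) stood at 9.93 CPM in the non-breeding and 155 CPM in the breeding testis of animal 1, and 25.8 and 226 CPM in those of animal 2. Both breeding values lay above both non-breeding values, and the change was log2 3.60 ± 0.22, adjusted p 0.00660. HOMER1, a scaffold of glutamate receptor signalling whose short form is induced by activity, stood at 71.5 and 91.8 CPM in the non-breeding and 388 and 652 CPM in the breeding libraries of animals 1 and 2 (log2 2.73 ± 0.19, adjusted p 0.00660). USP36, a deubiquitinase of the nucleolus, went from 70.7 to 391 CPM in animal 1 and from 138 to 729 CPM in animal 2 (log2 2.53 ± 0.16, adjusted p 0.00660). The seasons did not overlap for any of these genes. FOSL2, a partner of JUN in the AP-1 transcription factor, had 20.3 and 21.6 CPM in the non-breeding and 83.3 and 103 CPM in the breeding libraries of animals 1 and 2 (log2 2.25 ± 0.15, adjusted p 0.00660). EOLA2 stood at 6.16 and 11.3 CPM in the non-breeding and 27.4 and 86.1 CPM in the breeding libraries of animals 1 and 2 (log2 2.70 ± 0.24, adjusted p 0.0138). KIFC1, a minus-end-directed kinesin of the mitotic spindle, rose from 9.63 to 44.9 CPM in animal 1 and from 15.2 to 90.6 CPM in animal 2 (log2 2.52 ± 0.17, adjusted p 0.00660). JMY, a cofactor of p300 that also nucleates actin, rose from 64.9 to 187 CPM in animal 1 and from 54.3 to 406 CPM in animal 2 (log2 2.32 ± 0.34, adjusted p 0.0455). In all of them the breeding testis was higher within each animal and the breeding values of both animals exceeded the non-breeding ones.

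**Figure D2:**
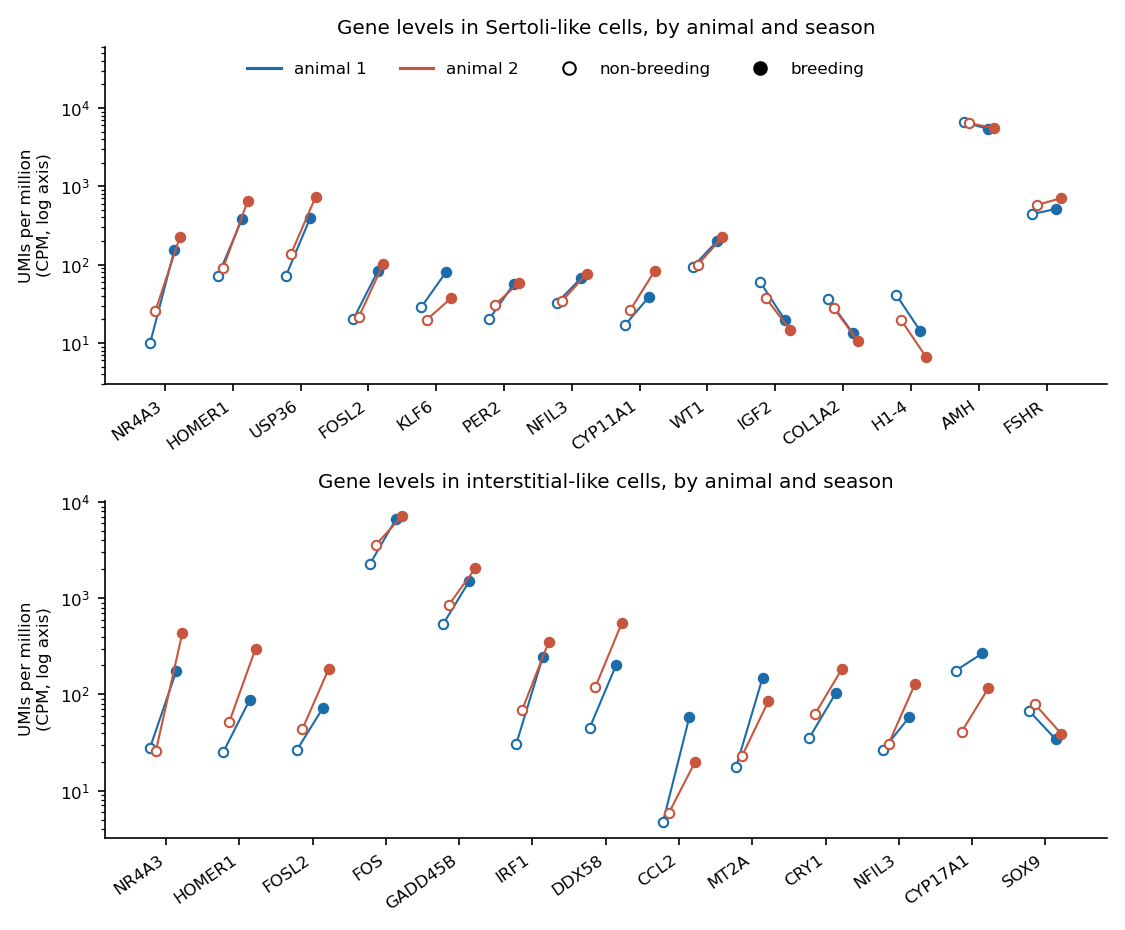
Levels of selected genes in Sertoli-like and interstitial-like cells, in CPM (log axis), with 1 point per library and a line joining the testes of 1 animal (open, non-breeding, and filled, breeding). NR4A3 rose from 9.93 to 155 CPM in animal 1 and from 25.8 to 226 CPM in animal 2 in Sertoli-like cells. AMH, which did not pass, went from 6571 to 5400 CPM in animal 1 and from 6387 to 5563 CPM in animal 2.

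Of the hormones, receptors and junction proteins that define the Sertoli cell, WT1 passed, from lists of 20 and 28 tested genes. The share of all genes that passed was 0.663%, so that counts near 0 are also what lists of this size hold at that share. AMH, the anti-Mullerian hormone of the immature Sertoli cell, had 6571 and 6387 CPM in the non-breeding and 5400 and 5563 CPM in the breeding libraries of animals 1 and 2, a difference of log2 -0.14 ± 0.16 (adjusted p 0.718). FSHR, the receptor through which follicle-stimulating hormone acts on Sertoli cells, had 439.7 and 578 CPM in the non-breeding and 514 and 707 CPM in the breeding libraries of animals 1 and 2 (log2 0.35 ± 0.16, adjusted p 0.330). The seasons overlapped for FSHR but not for AMH, which was lower in the breeding testis of both animals. The summed level of 14 Sertoli markers, which was not tested, was 10624 and 10314 CPM in the non-breeding and 9482 and 9518 CPM in the breeding libraries. INHA and INHBB, the subunits of inhibin B, gave log2 differences of -0.01 ± 0.15 (adjusted p 0.984) and 0.19 ± 0.15 (adjusted p 0.585). SOX9, a transcription factor of Sertoli cell differentiation, gave -0.26 ± 0.16 (adjusted p 0.485), and DHH, the hedgehog ligand that instructs fetal Leydig cells, -0.25 ± 0.14 (adjusted p 0.444). The junction genes CLDN11 and TJP1 gave 0.19 ± 0.16 (adjusted p 0.620) and 0.54 ± 0.17 (adjusted p 0.199). None of these passed. WT1, the member to pass of 20 tested Sertoli cell products and receptors, encodes a transcription factor that maintains Sertoli cell identity. It stood at 92.9 and 100.3 CPM in the non-breeding and 199 and 224 CPM in the breeding libraries of animals 1 and 2 (log2 1.22 ± 0.15, adjusted p 0.0346). Of 28 tested tight and adherens junction genes, 0 passed (median log2 0.11, beside -0.00 over all genes tested).

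CYP11A1, PAPPA and EGLN1 rose in Sertoli-like cells, each as the 1 higher member of a gene list with a median near 0. Over all genes tested 0.597% were higher. CYP11A1, the enzyme that cuts the side chain of cholesterol and opens steroid synthesis, stood at 16.8 and 26.3 CPM in the non-breeding and 39.0 and 82.8 CPM in the breeding libraries of animals 1 and 2 (log2 1.55 ± 0.18, adjusted p 0.0306), alone among 16 tested steroid synthesis genes (list median log2 -0.009). PAPPA, a protease that frees insulin-like growth factors from their binding proteins, stood at 15.8 and 34.4 CPM in the non-breeding and 31.5 and 62.8 CPM in the breeding libraries of animals 1 and 2, higher in the breeding testis of each animal but with overlap between the seasons (log2 1.03 ± 0.15, adjusted p 0.0437), and ranged from 0.39 to 1.62 on the log2 scale when single libraries were left out. Of 18 tested insulin-like growth factor genes 1 was higher and 1, IGF2, lower (list median -0.006). EGLN1, the oxygen sensor that marks HIF1A for degradation, rose from 74.9 to 147 CPM in animal 1 and from 100.4 to 173 CPM in animal 2 (log2 0.98 ± 0.14, adjusted p 0.0461), alone among 29 tested hypoxia and glycolysis genes (list median -0.07). KITLG, the ligand of the KIT receptor on germ cells, and IGF1R did not pass, at log2 0.97 ± 0.18 (adjusted p 0.0792) and 0.88 ± 0.16 (adjusted p 0.0792).

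Of the circadian clock list, 2 of 21 tested members passed in Sertoli-like cells, PER2 and NFIL3, both higher (list median log2 0.37). Over all genes tested 0.597% were higher by this test, and 22.9% were higher in both animals, beside 12 of the 21 clock genes (57.1%). PER2, a core repressor of the clock, stood at 20.1 and 30.5 CPM in the non-breeding and 56.0 and 58.6 CPM in the breeding libraries of animals 1 and 2 (log2 1.30 ± 0.17, adjusted p 0.0395). NFIL3, which represses D-box genes, stood at 32.5 and 34.6 CPM in the non-breeding and 67.9 and 76.5 CPM in the breeding libraries of animals 1 and 2 (log2 1.20 ± 0.14, adjusted p 0.0311). Of immediate early genes 3 of 32 passed, NR4A3, FOSL2 and KLF6, all higher (list median 0.43, beside -0.003 over all genes tested). In both animals 8 of the 32 were higher (25%), close to the 22.9% of all genes. Lower in both animals were 0 of the 32, beside 41.0% of all genes. KLF6 had 28.7 and 19.8 CPM in the non-breeding and 79.4 and 37.3 CPM in the breeding libraries of animals 1 and 2 (log2 1.28 ± 0.17, adjusted p 0.0408). FOS did not pass. It had 870.0 and 2699 CPM in the non-breeding and 4034 and 2289 CPM in the breeding libraries of animals 1 and 2, and rose in animal 1 while it fell in animal 2 (log2 1.08 ± 0.52, adjusted p 0.373). DUSP1, the phosphatase that ends MAP kinase signalling, had 168 and 378 CPM in the non-breeding and 797 and 512 CPM in the breeding libraries of animals 1 and 2 (log2 1.44 ± 0.39, adjusted p 0.152). The glucocorticoid target FKBP5 gave 0.75 ± 0.15 (adjusted p 0.0933), and 0 of 22 glucocorticoid genes passed. Of 18 heat shock and chaperone genes 0 passed, with a median of -0.39, and HSP90AA1 and HSP90AB1 gave -0.79 ± 0.18 (adjusted p 0.116) and -0.77 ± 0.18 (adjusted p 0.123). Of 32 interferon genes 0 passed, and MX1, IFI6 and ISG15 gave -0.00, -0.28 and 0.27.

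The genes with a symbol that fell in Sertoli-like cells numbered 5. RPGRIP1, a ciliary scaffold protein, fell from 6.65 to 1.68 CPM in animal 1 and from 8.43 to 2.09 CPM in animal 2 (log2 -1.90 ± 0.28, adjusted p 0.0488). The linker histone genes H1-4 and H1-2 fell as well, H1-4 from 41.5 to 14.2 CPM in animal 1 and from 19.4 to 6.70 CPM in animal 2 (log2 -1.45 ± 0.17, adjusted p 0.0311) and H1-2 from 27.5 to 8.22 CPM in animal 1 and from 18.0 to 7.38 CPM in animal 2 (log2 -1.41 ± 0.21, adjusted p 0.0488). IGF2, the fetal insulin-like growth factor, fell from 59.6 to 19.7 CPM in animal 1 and from 37.5 to 14.6 CPM in animal 2 (log2 -1.38 ± 0.16, adjusted p 0.0311). A fall was also found for the collagen chain gene COL1A2, which fell from 36.4 to 13.5 CPM in animal 1 and from 28.1 to 10.5 CPM in animal 2 (log2 -1.33 ± 0.16, adjusted p 0.0352). For each of these genes both breeding values lay below both non-breeding values. IGF2 was among the leading genes of an interstitial-like cluster, and the summed level of 16 interstitial markers in Sertoli-like cells was 1049 and 1019 CPM in the non-breeding and 906 and 928 CPM in the breeding libraries, lower in the breeding testis of both animals. Its part in the falls of IGF2 and COL1A2 was not tested. Of 28 tested extracellular matrix genes COL1A2 alone passed (list median -0.19), and of 22 tested cell cycle genes 0 did (median -0.10), beside 0.663% over all genes tested. The lists for cholesterol synthesis (21 tested genes), oxidative phosphorylation (28), antigen presentation (13), chemokines (13), the retinoic acid pathway (12), the hedgehog pathway (11), PDGF (9), thyroid hormone (8) and undifferentiated (17) and differentiating (6) spermatogonia had 0 genes that passed in Sertoli-like cells.

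In interstitial-like cells 15 of 31 tested immediate early genes, the interferon regulator IRF1, the metallothionein MT2A and the chemokine genes CCL2 and CXCL3 were higher in the breeding-season testes. Of 11082 genes tested, 190 were higher (1.71%) and 39 lower (0.352%) in the breeding season, 2.07% in all. All again had the same sign in both animals, as the paired test largely requires. The higher genes had log2 changes from 0.65 to 4.44, with a median of 1.05, and were led, among genes of at least 50 UMIs in both breeding libraries, by NR4A3, IRF1, NFATC2, MT2A, HOMER1 and TNFAIP3. Without the animal block 0 genes passed (629 at an unadjusted p under 0.05), and DESeq2 with the block called 71, of which 70 were shared. Leaving out the non-breeding library of animal 1 left 0 genes, and leaving out its breeding library 91. Without the non-breeding and the breeding library of animal 2 there were 35 and 8. The interstitial-like libraries also differed by season in depth and content. The median UMI count per cell was 1948 and 1758 in the non-breeding and 1093 and 1154 in the breeding libraries, ribosomal protein genes took 168043 and 158024 CPM in the non-breeding and 144512 and 138306 CPM in the breeding libraries, and the 13 mitochondrial genes 1612 and 1806 CPM in the non-breeding and 1115 and 874 CPM in the breeding libraries. The 12 peritubular and smooth muscle markers summed to 792 and 1018 CPM in the non-breeding and 1217 and 1485 CPM in the breeding libraries, with ACTA2 at 145 and 153 CPM in the non-breeding and 200.1 and 277 CPM in the breeding libraries, higher in the breeding testis of both animals. SYNPO2, a marker in this sum, is itself among the 190 higher genes, so the sum is not separate from them. The part of these differences in depth and content in the results was not tested.

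**Figure D3:**
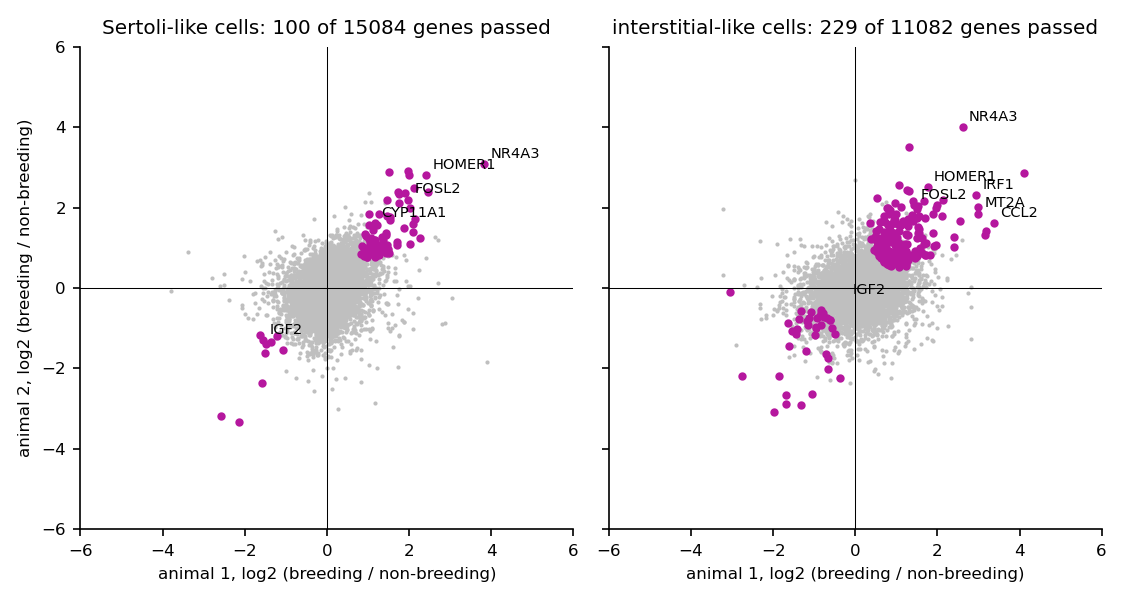
Log2 ratio of the breeding to the non-breeding testis in animal 1 (x) and animal 2 (y) for each gene tested, in Sertoli-like and interstitial-like cells, with genes that passed the paired test marked by colour. Genes that passed lie to the upper right or lower left, where both animals moved the same way, as the paired test largely requires. NR4A3 lies at the upper end in both classes.

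Immediate early genes were the list with the largest count in interstitial-like cells. Of 31 tested members 15 were higher in the breeding season and 0 lower, beside 1.71% higher over all genes. The list median was log2 0.72, beside -0.01 over all genes. The 15 were FOS, FOSB, FOSL2, JUN, EGR2, DUSP1, NR4A1, NR4A3, ZFP36, KLF4, MYC, MCL1, GADD45B, SOCS3 and CCN2. The study's methods state a single digestion time and none for each library, so a difference in handling between the August and December preparations cannot be told apart from season. NR4A3 stood at 28.0 and 26.0 CPM in the non-breeding and 177 and 434 CPM in the breeding libraries of animals 1 and 2 (log2 3.54 ± 0.27, adjusted p 6.76e-06). FOS, the founding gene of the class, rose from 2268 to 6719 CPM in animal 1 and from 3596 to 7155 CPM in animal 2 (log2 1.25 ± 0.18, adjusted p 0.00103), and the stress gene GADD45B from 538 to 1519 CPM in animal 1 and from 861 to 2047 CPM in animal 2 (log2 1.34 ± 0.16, adjusted p 0.000222). DUSP1 had 178 and 281 CPM in the non-breeding and 487 and 531 CPM in the breeding libraries of animals 1 and 2 (log2 1.14 ± 0.17, adjusted p 0.00159), and FOSL2 gave 1.88 ± 0.21 (adjusted p 0.000123). The breeding values of these genes exceeded the non-breeding ones in both animals. NFATC2, a calcineurin-dependent transcription factor, rose from 10.3 to 88.6 CPM in animal 1 and from 23.6 to 99.6 CPM in animal 2 (log2 2.37 ± 0.24, adjusted p 7.26e-05), and HOMER1 from 25.2 to 87.9 CPM in animal 1 and from 51.5 to 299.7 CPM in animal 2 (log2 2.30 ± 0.21, adjusted p 3.63e-05).

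Promoter windows of 3 genes that rose are printed because they hold the letters of a known response element. The cyclic AMP response element (CRE) is the site through which CREB acts on many immediate early genes. Windows run from 250 bases before to 50 bases after the RefSeq start on Mmul_10, and were searched on both strands for the full CRE TGACGTCA, the core site TGACG, which lies in the full site too, and the AP-1 site TGACTCA or TGAGTCA. Below, capitals mark CRE full and core sites in NR4A3 (chr15:43093855-43094154, minus strand), DUSP1 (chr6:170171715-170172014, minus strand) and the clock gene NFIL3 (chr15:106401615-106401914, minus strand).
NR4A3 promoter: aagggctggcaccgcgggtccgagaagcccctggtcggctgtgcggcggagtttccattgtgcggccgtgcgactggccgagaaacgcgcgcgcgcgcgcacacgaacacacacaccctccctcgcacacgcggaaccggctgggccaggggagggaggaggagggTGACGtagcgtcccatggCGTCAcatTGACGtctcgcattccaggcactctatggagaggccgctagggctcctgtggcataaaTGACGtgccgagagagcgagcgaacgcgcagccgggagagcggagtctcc
DUSP1 promoter: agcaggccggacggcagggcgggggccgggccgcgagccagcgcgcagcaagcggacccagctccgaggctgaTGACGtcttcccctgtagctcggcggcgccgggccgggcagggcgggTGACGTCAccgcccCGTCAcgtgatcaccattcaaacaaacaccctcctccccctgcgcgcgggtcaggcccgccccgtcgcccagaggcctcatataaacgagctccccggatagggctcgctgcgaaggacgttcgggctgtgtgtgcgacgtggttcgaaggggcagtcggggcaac
NFIL3 promoter: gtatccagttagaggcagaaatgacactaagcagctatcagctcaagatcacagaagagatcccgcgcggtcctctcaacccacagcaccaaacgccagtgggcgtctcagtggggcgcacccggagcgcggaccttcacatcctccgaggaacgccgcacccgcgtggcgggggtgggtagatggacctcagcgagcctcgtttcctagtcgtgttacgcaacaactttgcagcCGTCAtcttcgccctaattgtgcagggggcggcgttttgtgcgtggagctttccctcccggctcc

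The NR4A3 window holds 4 core sites, that of DUSP1 a full site 130 bases before the start, and that of NFIL3 a core site. The 3 windows were chosen for these letters, and those of HOMER1, USP36, KIFC1, FOSL2, IRF1, TNFAIP3 and DDX58, genes that rose as well, held 0 core and 0 full sites. The full CRE stood in 11 of 184 promoters of genes higher in interstitial-like cells (5.98%) and in 4 of 80 of those higher in Sertoli-like cells (5%). The shares were 2.91% and 2.71% among the genes tested in each class and 2.01% among all 21107 promoters of the same length. Core sites stood in 31.5% and 33.8% of the promoters of higher genes, beside 30.6% and 28.5% of those tested, close to the background, and AP-1 sites in 1.63% and 1.25%, beside 2.74% and 2.83%. These counts describe the letters of the windows and were not tested.

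Some inflammatory and interferon regulators rose in interstitial-like cells. Of 13 tested chemokine and cytokine genes 4 were higher and 0 lower (median log2 0.68), CXCL3, CCL2, TNFAIP3 and ICAM1. Over all genes tested 1.71% were higher and the median was -0.01. CCL2, which draws monocytes, rose from 4.67 to 57.7 CPM in animal 1 and from 5.81 to 19.9 CPM in animal 2 (log2 2.50 ± 0.39, adjusted p 0.00224). It rests on few counts, and missed the minimum set for the leading genes of the class, 50 UMIs in both breeding libraries. TNFAIP3, a brake on NF-kappaB, rose from 11.2 to 109 CPM in animal 1 and from 15.1 to 41.8 CPM in animal 2 (log2 2.18 ± 0.31, adjusted p 0.00113), and the adhesion gene ICAM1 from 26.1 to 142 CPM in animal 1 and from 49.99 to 122 CPM in animal 2 (log2 1.69 ± 0.22, adjusted p 0.000548). Of 27 tested interferon genes 2 rose, IRF1 and DDX58, beside the same 1.71% over all genes. IRF1, a transcription factor induced by interferon and by NF-kappaB, had 30.8 and 69.4 CPM in the non-breeding and 244 and 350.4 CPM in the breeding libraries of animals 1 and 2 (log2 2.56 ± 0.19, adjusted p 6.76e-06). DDX58, the RNA sensor RIG-I, had 44.8 and 121 CPM in the non-breeding and 201 and 555 CPM in the breeding libraries of animals 1 and 2 (log2 2.17 ± 0.17, adjusted p 8.66e-06). The effectors MX1, IFI6 and ISG15 did not pass, at -0.10, -0.39 and 0.28, and the median of the list was 0.03.

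Of 21 tested glucocorticoid response genes 3 were higher, KLF9, DUSP1 and MT2A, and the list had a median of 0.64. Over all genes tested 1.71% were higher and the median was -0.01. DUSP1 is counted among the immediate early genes too. MT2A, a metal-binding metallothionein, rose from 17.7 to 148 CPM in animal 1 and from 22.9 to 85.1 CPM in animal 2 (log2 2.33 ± 0.24, adjusted p 8.02e-05), and KLF9 by log2 1.48 ± 0.29 (adjusted p 0.0153). KLF9 is also a thyroid hormone target and was the member to pass among 7 tested thyroid genes. FKBP5 and TSC22D3, both direct targets of the glucocorticoid receptor, gave 0.76 ± 0.19 (adjusted p 0.0509) and 0.61 ± 0.19 (adjusted p 0.124) and did not pass. The clock list had 2 higher of 20, CRY1 and NFIL3 (median 0.25), beside the same 1.71% over all genes. CRY1, which represses the clock together with the PER proteins, rose from 35.5 to 103 CPM in animal 1 and from 63.2 to 182 CPM in animal 2 (log2 1.52 ± 0.18, adjusted p 0.000179), and NFIL3 from 26.1 to 57.7 CPM in animal 1 and from 30.6 to 128 CPM in animal 2 (log2 1.73 ± 0.24, adjusted p 0.000884). In both cell classes NFIL3 was thus higher in the breeding testis of each animal. The sources used here give no hour of tissue removal, so time of day and season cannot be told apart for these genes.

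**Figure D4:**
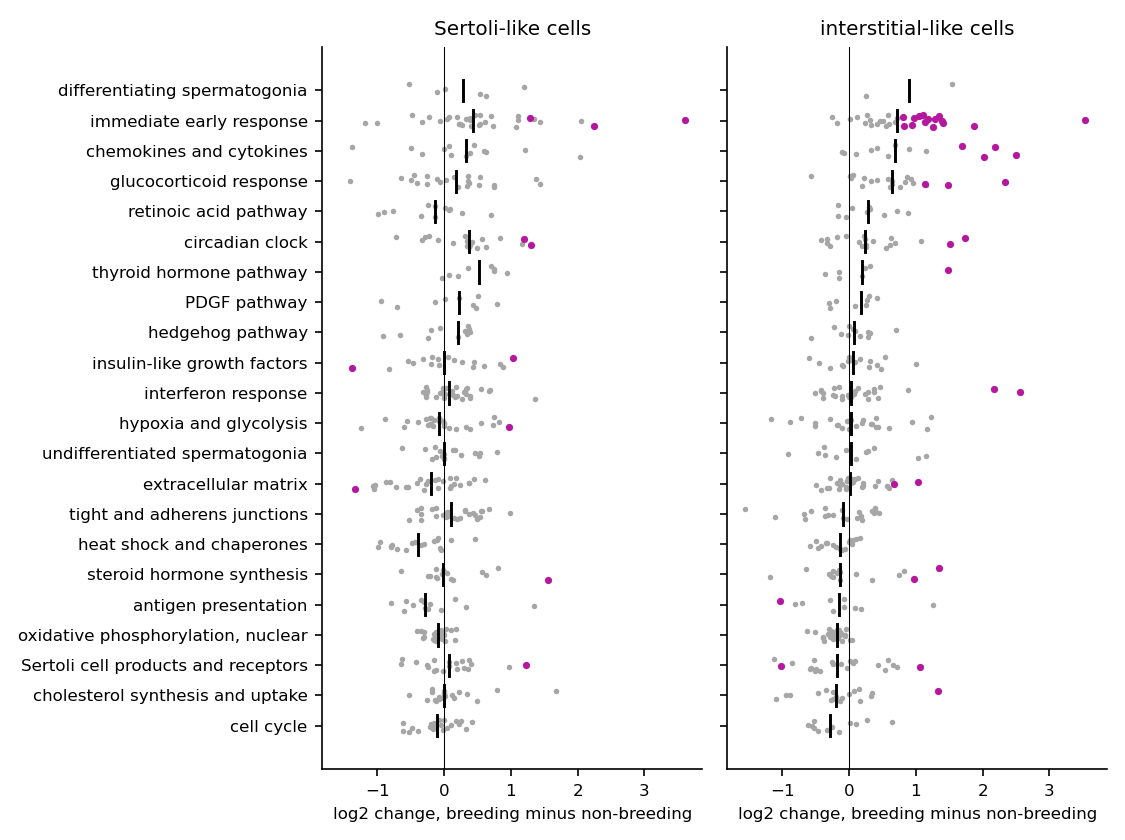
Log2 change (breeding minus non-breeding) of each tested member of the 22 gene lists in Sertoli-like and interstitial-like cells, with 1 point per gene, coloured where the gene passed, and the list median as a bar. Of 31 immediate early genes 22 were higher in both animals in interstitial-like cells (71.0%, median 0.72), beside 3491 of 11082 genes tested (31.5%), while heat shock genes in Sertoli-like cells have a median of -0.39.

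CYP17A1 and LHCGR led a small cluster of interstitial-like cells, the steroidogenic one. It held 36 and 61 cells in the non-breeding and 49 and 114 in the breeding libraries of animals 1 and 2, 6.82%, 4.92%, 4.35% and 7.72% of the interstitial-like cells. Over all interstitial-like cells CYP17A1, the enzyme that turns progestogens into androgens, rose from 177 to 267 CPM in animal 1 and from 41.1 to 115 CPM in animal 2 (log2 0.97 ± 0.21, adjusted p 0.0223), with overlap between the seasons, since animal 1 had more in both. Its change ranged from 0.03 to 2.23 on the log2 scale when single libraries were left out (adjusted p 0.2998 to 0.9999), and without the animal block its adjusted p was 0.926. Within the cluster CYP17A1 stood at 1591 and 426 CPM in the non-breeding and 2918 and 884 CPM in the breeding libraries, and in the other interstitial-like cells at 2.10 and 2.13 CPM in the non-breeding and 2.22 and 5.12 CPM in the breeding libraries. Both animals thus had a higher CYP17A1 level in these cells in the breeding season. These cluster sums have no test. HSD3B2, an enzyme of the same pathway, stood in the cluster at 144 and 114 CPM in the non-breeding and 281 and 345 CPM in the breeding libraries, LHCGR, the luteinizing hormone receptor, at 533 and 265 CPM in the non-breeding and 761 and 515 CPM in the breeding libraries, and STAR, which carries cholesterol into mitochondria, at 406 and 215 CPM in the non-breeding and 428 and 349 CPM in the breeding libraries. CYP11A1, at 93.1 and 4.21 CPM in the non-breeding and 14.8 and 27.8 CPM in the breeding libraries, and INSL3, the product of mature Leydig cells, at 50.8 and 21.1 CPM in the non-breeding and 44.3 and 35.7 CPM in the breeding libraries, went down in animal 1 and up in animal 2, and rest on 1 to 11 UMIs per library. In the whole class HSD3B2 and LHCGR missed the threshold, at log2 0.98 ± 0.26 (adjusted p 0.0729) and 0.83 ± 0.26 (adjusted p 0.133), and STAR gave 0.34 ± 0.21 (adjusted p 0.514). INSL3 was too low to be tested. Of 17 tested steroid synthesis genes CYP17A1 and SOAT1, which stores cholesterol as esters, were higher (SOAT1 log2 1.35 ± 0.28, adjusted p 0.0171), with a list median of -0.14. Over all genes tested 1.71% were higher.

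Growth and matrix genes that passed in interstitial-like cells were KITLG, LAMA2 and LUM. IGF1, DLK1 and PDGFRA, genes of Leydig cells and their progenitors, gave log2 differences of 0.48 ± 0.20 (adjusted p 0.264), 0.43 ± 0.16 (adjusted p 0.213) and -0.29 ± 0.16 (adjusted p 0.435). KITLG rose by log2 1.06 ± 0.23 (adjusted p 0.0230), and of 30 matrix genes 2 were higher (beside 1.71% over all genes), the laminin chain LAMA2 (0.67 ± 0.16, adjusted p 0.0427) and the proteoglycan LUM (1.03 ± 0.25, adjusted p 0.0454), though LUM ranged from -0.73 to 3.43 when single libraries were left out. COL1A1 and DCN gave -0.42 ± 0.16 (adjusted p 0.241) and 0.06 ± 0.16 (adjusted p 0.908). SOX9 fell from 67.2 to 34.2 CPM in animal 1 and from 78.7 to 38.8 CPM in animal 2 (log2 -1.02 ± 0.20, adjusted p 0.0134). SOX9 and KITLG were the members to pass among 22 tested Sertoli cell products, beside 2.07% over all genes tested. SOX9 is a Sertoli cell gene, and the summed level of 14 Sertoli markers in interstitial-like cells was 2218 and 2459 CPM in the non-breeding and 1599 and 1809.9 CPM in the breeding libraries, with AMH at 1097 and 1367 CPM in the non-breeding and 811 and 937 CPM in the breeding libraries, so that Sertoli RNA among them was lower in both breeding libraries. Its part in the fall of SOX9 was not tested. Lower levels were also found for ND2, a mitochondrially encoded subunit of complex I, which fell from 1001 to 512 CPM in animal 1 and from 1024 to 523 CPM in animal 2 (log2 -0.99 ± 0.16, adjusted p 0.00247), and for H1-4 (log2 -1.17 ± 0.28, adjusted p 0.0407), H4C3 (-1.49 ± 0.30, adjusted p 0.0161), KCNIP4 (-1.21 ± 0.20, adjusted p 0.00356) and MAMU-DRB1, a class II antigen-presenting gene and the member to pass among 10 tested (-1.03 ± 0.22, adjusted p 0.0230), which ranged from -4.05 to 1.45 when single libraries were left out. In interstitial-like cells 0 genes passed of the lists for oxidative phosphorylation (28 tested), hypoxia and glycolysis (25), junctions (21), heat shock (17), insulin-like growth factors (16), the cell cycle (12), the hedgehog pathway (12), retinoic acid (10), PDGF (8) and undifferentiated (12) and differentiating (2) spermatogonia.

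Sertoli-like and interstitial-like cells shared part of their season genes. Of the higher genes 34 were common to both, 37.8% of the 90 in Sertoli-like and 17.9% of the 190 in interstitial-like cells, among them NR4A3, HOMER1, USP36, FOSL2, JMY and NFIL3. Of the lower genes 7 were common, 70.0% of 10 and 17.9% of 39. Both classes came from the same libraries, so these overlaps are not independent. The difference of the season change between the classes was tested in a single model over both. Of 14183 genes 1 passed (0.00705%), MT2A, with a change in Sertoli-like cells minus that in interstitial-like cells of -2.19 on the log2 scale (SE 0.244, adjusted p 0.0399). In Sertoli-like cells MT2A stood at 16.4 and 27.5 CPM in the non-breeding and 37.1 and 18.2 CPM in the breeding libraries. In the same model 0 genes passed in the opposite direction (0%), and 0 passed in either direction without the library block (295 at an unadjusted p under 0.05), while DESeq2 with the block called 35. A gene called in 1 class and not in the other, FOS or DUSP1 for example, was therefore not shown to differ between them.

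Germ cells and vessels had few season genes. In spermatogonia-like cells 2 genes were higher (0.0209%) and 7 lower (0.0731%) of 9572, 0.094% in all, 3 passed without the block and 1 in DESeq2 with the block. The lower genes included BRD2, a reader of acetylated histones, which fell from 229.9 to 117 CPM in animal 1 and from 238 to 101 CPM in animal 2 (log2 -1.14 ± 0.25, adjusted p 0.0218), H1-3 (log2 -1.10 ± 0.24, adjusted p 0.0218) and MTPN (log2 -1.09 ± 0.24, adjusted p 0.0218). ID4, a marker of spermatogonial stem cells, had 189.6 and 242 CPM in the non-breeding and 336 and 336 CPM in the breeding libraries of animals 1 and 2 (log2 0.61 ± 0.23, adjusted p 0.717), and GFRA1, a receptor for GDNF on these cells, gave 0.51 ± 0.38 (adjusted p 0.924). UTF1 and DDX4 gave -0.22 ± 0.23 (adjusted p 0.956) and -0.21 ± 0.24 (adjusted p 0.958). Of 18 undifferentiated and 5 differentiating spermatogonia genes tested 0 passed, and KIT and STRA8 were too low to be tested. These sums rest on 73 to 184 cells per library, and a test on simulated data at this size recovered 39.8% of 2-fold and 93.3% of 4-fold changes, so that smaller changes may not be detectable. In endothelial-like cells 2 genes were higher (0.0272%) and 3 lower (0.0409%) of 7341, 0.0681% in all, and 0 passed without the block (424 at an unadjusted p under 0.05) and 3 in DESeq2 with the block. Between 4 and 27 passed when single libraries were left out, and 132 with the barcodes of the 4 genes kept. These sums rest on 31 to 152 cells per library, and a test on simulated data at this size recovered 14.3% of 2-fold and 76.1% of 4-fold changes, so that most 2-fold changes would not be detectable. The higher genes were DDX58, which rose from 198 to 453 CPM in animal 1 and from 279.5 to 1164 CPM in animal 2 (log2 1.57 ± 0.25, adjusted p 0.0144), and GADD45B (log2 1.34 ± 0.24, adjusted p 0.0385), both also higher in interstitial-like cells.

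NR4A3 was also read in other classes, as a description. Its level was 92.2 and 80.8 CPM in the non-breeding and 679 and 1127 CPM in the breeding libraries in myeloid-like cells, of which each library had 17 to 61, and 19.1 and 90.2 CPM in the non-breeding and 93.8 and 260.1 CPM in the breeding libraries in peritubular-like cells, of which each library had 5 to 138. The peritubular-like value of the non-breeding library of animal 2 is 1 UMI in 5 cells, and no direction is read from it. In endothelial-like cells it was 10.0 and 18.0 CPM in the non-breeding and 25.5 and 62.9 CPM in the breeding libraries, and in spermatogonia-like cells 11.5 and 21.6 CPM in the non-breeding and 12.7 and 16.8 CPM in the breeding libraries. Counts were not corrected for free RNA, and the Sertoli cell gene AMH stood at 576 and 1957 CPM in the non-breeding and 494 and 919 CPM in the breeding libraries in endothelial-like and at 4502 and 3597 CPM in the non-breeding and 1359 and 2111 CPM in the breeding libraries in myeloid-like cells. No direction is read from the endothelial-like values, which lie below those of Sertoli-like cells in both breeding libraries. In myeloid-like cells the breeding values lay above those of Sertoli-like and interstitial-like cells of the same libraries. In spermatogonia-like cells the level was higher in animal 1 and lower in animal 2. The class-to-class differences were not tested.

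Summed over all cells, 72 genes were higher (0.431%) and 8 lower (0.0479%) of 16703, 0.479% in all, led by NR4A3 (log2 3.52 ± 0.18, adjusted p 0.00410), HOMER1 (2.71 ± 0.16, adjusted p 0.00424) and EOLA2 (2.57 ± 0.23, adjusted p 0.0134). Without the animal block 0 passed (868 at an unadjusted p under 0.05), DESeq2 with the block called 492, and with DESeq2 size factors in place of TMM 3 were higher and 0 lower. Leaving out the libraries in turn gave 185 and 0 genes without the non-breeding and breeding library of animal 1, and 450 and 0 without those of animal 2. Sums over all cells can also move with cell makeup, whose part in the falls below was not tested. The embryonic globin gene HBE1 fell from 165 to 41.7 CPM in animal 1 and from 359 to 37.1 CPM in animal 2 (log2 -2.54 ± 0.30, adjusted p 0.0284) and HBA by log2 -2.16 ± 0.19 (adjusted p 0.0134). These are RNAs of red blood cells, and HBE1 and HBA were the leading genes of clusters 0 and 12, which stayed unnamed. Cluster 0 held 10.2% and 0.0401% of cells in the non-breeding and 0.0791% and 0.0904% in the breeding testes of animals 1 and 2. Cluster 12 held 3.33% and 1.20% in the non-breeding and 9.56% and 7.28% in the breeding testes. Unnamed cells held 2313 and 7565 HBE1 UMIs in the non-breeding and 0 and 9 in the breeding libraries. The spermatocyte-like class held 1885 in the non-breeding library of animal 2. In Sertoli-like cells the summed erythroid markers were 8.54 and 103 CPM in the non-breeding and 63.0 and 64.6 CPM in the breeding libraries. H1-4 fell over all cells as well (log2 -1.45 ± 0.19, adjusted p 0.0397). A pair of features without a symbol, ENSMMUG00000055690 and ENSMMUG00000062077, chosen after their values were seen, were lower in all 4 classes tested. In Sertoli-like cells ENSMMUG00000055690 stood at 5174 and 7658 CPM in the non-breeding and 1179.7 and 764 CPM in the breeding libraries and ENSMMUG00000062077 at 946 and 1151 CPM in the non-breeding and 157 and 125 CPM in the breeding libraries, with no overlap between the seasons.

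The signs of the named genes that passed were followed through the alternatives. These genes had passed with the same sign in both animals, and the alternatives use the same libraries. Kept signs are thus largely set by that choice and are no independent support. Of the genes that passed and are named here with a value of their own, 19 of 19 in Sertoli-like and 25 of 27 in interstitial-like cells kept their sign in every alternative run, as did 3 of 3 in spermatogonia-like and 2 of 2 in endothelial-like cells. The exceptions were LUM and MAMU-DRB1 when single libraries were left out, in fits that also dropped the animal block. In Sertoli-like cells 6 of 19 and in interstitial-like cells 15 of 27 also passed in every alternative other than the fits without a block or without a library. The same held for 0 of 3 in spermatogonia-like cells, 0 of 2 in endothelial-like cells and 0 of 6 over all cells. In interstitial-like cells the calls of CYP17A1, KLF9, SOAT1, LAMA2, LUM, H1-4 and MAMU-DRB1 were lost with the 4-gene barcodes kept, and these and the calls of CCL2, KITLG, H4C3, KCNIP4 and SOX9 in DESeq2 with the block.

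The size of some changes moved when a library was left out. Each of these fits also dropped the animal block, so that level differences between the 2 animals enter them. The part of the library and that of the lost pairing cannot be told apart. The genes given here are those that passed, have a value above, and had a log2 change more than 1.5 times larger or smaller (as a ratio of log2 values) with 1 library left out. Named genes that had not passed moved as well. FKBP5 and HSD3B2, for example, ranged from 0.08 to 1.20 and from 0.55 to 1.23 in interstitial-like cells, and FOS and FSHR from 0.37 to 1.90 and from 0.08 to 0.58 in Sertoli-like cells. Without the non-breeding library of animal 1 the log2 change of H1-4 was -0.75 in Sertoli-like cells, -0.36 in interstitial-like cells and -0.77 over all cells, that of PAPPA 0.60 in Sertoli-like cells, and those of CYP17A1, LUM and MAMU-DRB1 2.23, 3.43 and 1.45 in interstitial-like cells. Without the breeding library of animal 1 KLF6 gave 0.71 in Sertoli-like cells, MTPN -0.64 in spermatogonia-like cells, and CYP17A1, LUM and MAMU-DRB1 0.09, -0.73 and -4.05 in interstitial-like cells. More of the higher genes moved when a library of animal 2 was left out. Without its breeding library EOLA2 gave 1.70 in Sertoli-like cells and 1.61 over all cells, CYP11A1 and PAPPA 0.92 and 0.39 in Sertoli-like cells, and DDX58 0.99 in endothelial-like cells. In interstitial-like cells HOMER1, FOSL2, DDX58, NFIL3, SOAT1, LUM and MAMU-DRB1 then gave 1.13, 0.99, 1.23, 0.99, 0.76, 1.80 and 0.16. Without its non-breeding library PAPPA gave 1.62 in Sertoli-like cells, and KLF9, CYP17A1, LUM, H4C3, H1-4 and MAMU-DRB1 gave 0.86, 0.03, -0.06, -0.73, -1.87 and -1.69 in interstitial-like cells.

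**Figure D5:**
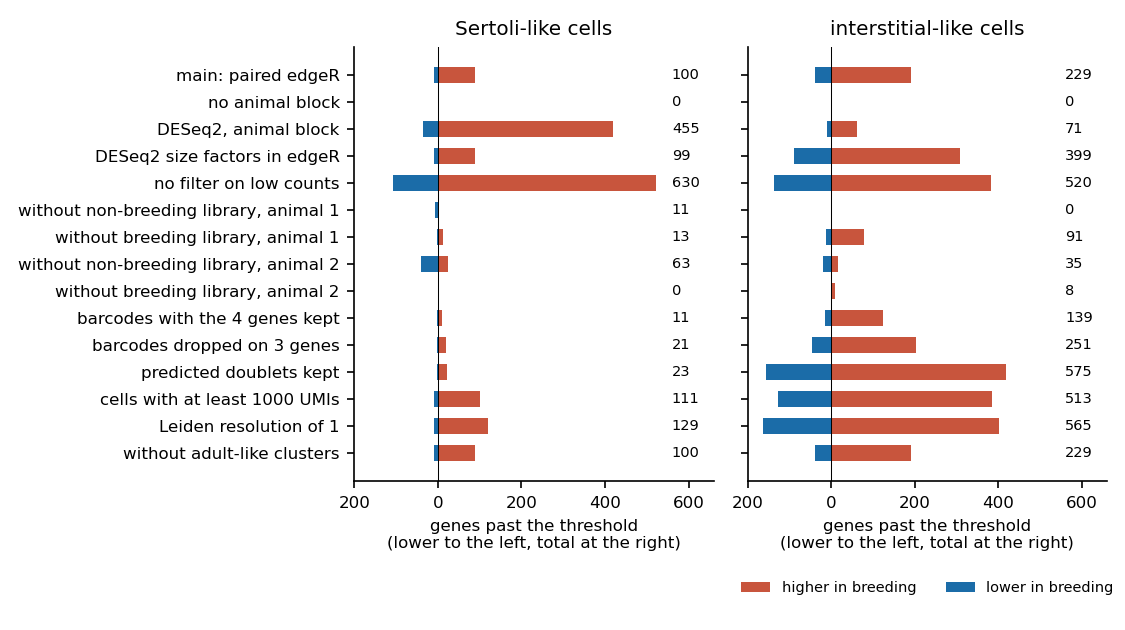
Genes that passed an adjusted p of 0.05 in Sertoli-like and interstitial-like cells under each alternative, with genes higher in the breeding season to the right of 0, lower genes to the left and the total at the right. The count in Sertoli-like cells went from 0 without the animal block to 630 without a filter on low counts, and that in interstitial-like cells from 0 to 575 with predicted doublets kept.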

How the data were processed

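Testis cells of 2 prepubertal monkeys were profiled by 10x Genomics single-cell RNA sequencing, with 1 library per animal and season. The authors deposited filtered matrices of UMI counts per gene and barcode, made with Cell Ranger 9.0.0 on Mmul_10 per the submitters' processing notes. Counts were not normalized or corrected for free RNA. The labels list 48 samples, 8 per group, and no label names a matrix, so the 12 matrices were assigned to group, animal and season from the library list of the study's supplement. That list calls the youngest group puberty, while the labels call it prepuberty. Columns of no mapped sample numbered 0.

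Of 26530 features, 9920 had no symbol, 643 of which were named from the reference, and 173 shared a symbol. Barcodes were filtered as described, which removed dividing cells with AURKA as well. Scrublet, as implemented in scanpy 1.11.5, gave doublet scores. Its automatic threshold called 0 cells in all 4 libraries, so the highest-scoring cells were removed at 0.8% per 1000 cells, 5.77% to 9.07% of each library. Cells were clustered on 2000 variable genes, 30 components and 20 neighbours (Leiden resolution 2). Clusters were named from 13 marker lists against the 20th percentile of clusters, a baseline chosen after seeing the data, and clusters with over 33.3% doublets or under 3 raised markers stayed unnamed.

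UMIs were summed per library and class with at least 20 cells in each library. Season was tested with edgeR 4.0.16 (filterByExpr, TMM, quasi-likelihood) in R 4.3.3 with the animal as a block and Benjamini-Hochberg adjustment over all genes tested, and class shares likewise with the library's cells as total. The pairing comes from the animals. The difference between the 2 animals in the non-breeding season was correlated over genes with that in the breeding season. The correlation was 0.522 over all cells, 0.598 in Sertoli-like, 0.435 in interstitial-like, 0.255 in endothelial-like and 0.111 in spermatogonia-like cells. It describes differences between the animals that both seasons share, and not agreement of their season changes. The paired fit leaves a single residual degree of freedom, and edgeR borrows the spread across genes. On simulated data the Sertoli-like fit recovered 54.1% of 2-fold and 96.9% of 4-fold changes with 8.64% false calls, and the interstitial-like fit 68.7% and 92.7% with 3.68%. In each simulation all genes of a class had the same spread between libraries, unlike real genes. These shares therefore need not hold for the real data.

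Named genes were those with a symbol, an adjusted p under 0.05, the same sign in both animals and at least 50 UMIs in each library of the higher season (the 6 largest changes in each direction in the largest classes, 3 in others), fixed marker genes, and up to 3 members with the smallest p from each of 22 gene lists. The members, lists and tests were chosen with earlier results of these data known. DESeq2 1.42.0, DESeq2 size factors, no filter, no block, other barcode rules, doublets kept, deeper cells, Leiden resolution 1 and leaving out libraries were tried as alternatives.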

Additional observations from a re-analysis of the deposited data

Results flagged for a closer look

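MT2A was the gene whose season change differed between the cell classes in a test of the difference itself. Its log2 change in Sertoli-like cells minus that in interstitial-like cells was -2.19 (SE 0.244, edgeR adjusted p 0.0399). It was higher in the breeding testis of both animals in interstitial-like cells, and in Sertoli-like cells it was higher in animal 1 and lower in animal 2.

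Of the cells of the non-breeding library of animal 1, 53.0% carried a UMI of the 4 genes and were left out, a signal outside the comparison and above the 3.04% to 7.21% of the other 3 libraries. Among the cells that stayed in, 46 were spermatid-like in that library, and 0 in the other 3. The excluded cells lay in several clusters. In Sertoli-like cluster 10, led by CST9L, and spermatid-like cluster 19, both only of this library, 99.3% of 727 and 78.6% of 224 cells were dropped. In Sertoli-like clusters 2 and 3, where most analysed Sertoli-like cells of this library lay, 44.2% of 1809 and 45.2% of 2762 cells were dropped. The 53.0% is thus not a share of adult-like cells. What the excluded cells are was not tested further.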

How the results depend on the processing

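The counts of genes that passed moved with nearly every choice. They are given here for all cells, Sertoli-like, interstitial-like, spermatogonia-like and endothelial-like cells in turn, beside 80, 100, 229, 9 and 5 genes as reported, and last for the difference between Sertoli-like and interstitial-like cells, beside 1. Without the replicate block, that is without pairing by animal, they were 0, 0, 0, 3 and 0, and 0 for the difference. DESeq2 with the block gave 492, 455, 71, 1 and 3, and 35. With no filter on low counts they were 191, 630, 520, 7 and 23, and 205. With DESeq2 size factors they were 3 over all cells and 399 in interstitial-like cells. Keeping barcodes with the 4 genes gave 0, 11, 139, 6 and 132, and 2. Dropping barcodes on 3 genes gave 8, 21, 251, 4 and 33. With predicted doublets kept they were 9, 23, 575, 9 and 35, and 3. Cells of at least 1000 UMIs gave 513 in interstitial-like and 46 in endothelial-like cells, and Leiden resolution 1 gave 565 and 3. Without adult-like clusters, an alternative chosen after seeing the data, the count over all cells was 77. The clusters taken out lay in none of the 4 classes tested, since clusters named Sertoli-like were kept. The counts of 100, 229, 9 and 5 in these classes are therefore the reported fits again and no check of them. Leaving out 1 library at a time gave 0 to 450, 0 to 63, 0 to 91, 7 to 10 and 4 to 27 genes, and 10 to 214 for the difference, and 0 to 2 classes by share. The causes were not tested.

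Directions turned for genes and shares that had not passed, and for LUM and MAMU-DRB1. Fits with single libraries left out also dropped the animal block. The Sertoli-like share gave -0.37 to 0.29 and the endothelial-like share -0.20 to 2.63 with single libraries left out, the peritubular-like share -1.34 to 4.51 beside 1.38 as reported (and -0.36 without the replicate block) and the share of unnamed cells -0.85 to 1.42 beside 0.28 (-0.12 without the block). In cells of at least 1000 UMIs the Sertoli-like share gave 0.0724 and the interstitial-like share 0.0155, beside 0.53 as reported. In Sertoli-like cells INHA gave 0.00772 and MX1 0.00634 at Leiden resolution 1, MX1 0.00598 in DESeq2, and CLDN11 -0.43 and MX1 0.00695 with the 4-gene barcodes kept. In interstitial-like cells DCN gave -0.11 in deeper cells and MX1 0.0331 in DESeq2. With single libraries left out the ranges were -0.51 to 0.0294 for DHH, -0.18 to 0.57 for CLDN11, -0.48 to 0.50 for MX1 and -0.34 to 0.92 for ISG15 in Sertoli-like cells, -0.73 to 3.43 for LUM, -4.05 to 1.45 for MAMU-DRB1, -0.12 to 0.71 for STAR, -0.0488 to 0.98 for IGF1, -0.78 to 0.20 for IGF2, -0.50 to 0.54 for DCN, -0.45 to 0.54 for MX1, -0.89 to 0.11 for IFI6 and -0.17 to 0.98 for ISG15 in interstitial-like cells and -0.37 to 1.01 for GFRA1 in spermatogonia-like cells.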

Other observations

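Few cells of other kinds were found. Myeloid-like cells made up 0.433% and 0.611% of cells in the non-breeding and 0.269% and 0.350% in the breeding testes of animals 1 and 2, lower in the breeding testis of both. The paired difference was log2 -0.74 ± 0.35 (SE) and did not pass (edgeR adjusted p 0.327). T-like and NK-like cells made up 0.303% and 0.271% in the non-breeding and 0.269% and 0.271% in the breeding testes (log2 -0.08 ± 0.35, adjusted p 0.920).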
